A study of Mus musculus with 19 samples.

Results

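The ZFP genes are the mouse genes that encode numbered zinc finger proteins. Members were chosen by symbol (ZFP followed by digits, without ZFP36, a protein that binds mRNA) and by a mean of at least 10 raw counts over the 19 libraries, which 273 of the 360 such symbols in the table met. Of the others, 29 had no count in any library and 58 had a mean below 10, and 10 of those 87 genes passed the filter on low counts used for the tests. The table held 24982 genes, of which 10934 had a mean of at least 10. All 273 members passed the filter on low counts. The minimum fell within a continuous range of low values: ZFP458, ZFP428 and ZFP433 lay just above it with means of 10.5, 10.8 and 10.9 counts, and ZFP174, ZFP583 and ZFP286 just below with 9.26, 8.58 and 8.32. ZFP658 was named with the family because of its shift between groups, so its values are given as a description without a test.

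Bulk RNA-seq was made from regulatory T cells (Tregs, CD4+ FoxP3-GFP+) of Foxp3DTR mice, in which the reporter is read from the Foxp3 gene. All mice of all groups carried this allele, and the labels give no age for the mice behind a library, while the methods give 1 range of young adult ages for the whole study. Cells were sorted into CD44high and CD44low Tregs from axillary, brachial and inguinal nodes that drain the injury site, 7 days after a burn or after the sham procedure of uninjured mice. There were 4 CD44high and 5 CD44low libraries from uninjured mice and 4 CD44high and 6 CD44low libraries from injured mice, and the labels do not say how many mice stand behind one, so p-values measure only the spread between these libraries. Library totals lay between 5582234 and 9433610 counts, of which members took 0.578% to 0.785%. The sort was visible in the RNA: CD44 lay at 541 to 626 CPM (the count as a share of the library's scaled total) in CD44high and 111 to 156 CPM in CD44low libraries of uninjured mice, and at 369 to 497 and 102 to 150 CPM in those of injured mice. FOXP3 was present in every library, at 47.7 CPM or more. Of the 6 injured CD44low libraries, 3 carry a second number in their labels. Between these and the other 3, 16 members lay wholly higher and 46 wholly lower with the second number, against 1074 and 1142 of all 11464 genes tested, so counts that use this group are also given without them, and a named call that was lost without them is marked as such.

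Other cells could have entered the sort, and their markers were measured. The 5 myeloid markers summed to 63.9 to 137 CPM in CD44high and 19.8 to 37.2 CPM in CD44low libraries of uninjured mice, to 90.5 to 232 CPM in injured CD44high and to 31.5 to 145 CPM in injured CD44low libraries. The 5 B cell markers summed to 70.3 to 206 CPM over all libraries and the 4 CD8 and NK markers to 46.4 to 72.6 CPM. The 4 stromal markers summed to 59.3 to 72.9 CPM in CD44high and 187 to 219 CPM in CD44low libraries of uninjured mice, and to 78.3 to 114 and 135 to 230 CPM in those of injured mice. Most of this sum was PECAM1, which leukocytes also carry, whereas PDPN was at 0 in every library and COL3A1 in every CD44low library. The 5 cycling markers (MKI67, TOP2A, CCNB1, CDK1 and BIRC5) summed to 392 to 512 CPM in uninjured and 252 to 316 CPM in injured CD44high libraries, and to 12.6 to 24.4 and 13.96 to 34.8 CPM in the CD44low libraries. Single markers of other lists passed the edgeR test for CD44 in uninjured mice as well: KLRB1C and CD79B were higher in CD44high Tregs, by 3.63 (adjusted p = 0.000125) and 0.84 (adjusted p = 0.00037) on the log2 scale, COL1A1 was higher by 4.92 (adjusted p = 6.2e-05) at no more than 3.22 CPM, and PECAM1 was lower by 1.73 (adjusted p = 5.2e-10). Cycling and myeloid markers and these single ones thus moved with CD44. LYZ2, ITGAM and KLRB1C also rose with injury in CD44low Tregs (adjusted p = 0.0301, 0.00873 and 0.00873), as did BIRC5 alone of the cycling markers (adjusted p = 0.0311). PECAM1 rose with injury in CD44high Tregs (adjusted p = 0.0075). These markers moved in the same libraries as the members described below, and their part in the members' differences was not tested. In bulk samples, fewer cells of a type and less RNA per cell cannot be told apart.

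C2H2 zinc fingers are short loops folded around a zinc ion, and an array of them reads a stretch of DNA. Many ZFP genes also encode a KRAB box, which binds TRIM28 (KAP1). TRIM28 in turn brings the histone methyltransferase SETDB1, and the complex is best known for silencing retrotransposons and guarding imprinted genes. ZFP genes without a KRAB box include promoter-binding activators, partners of chromatin complexes and proteins that act on RNA or ribosomes.

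A KRAB A box was found by its sequence pattern in the GENCODE proteins of 141 members and not in those of 130, while 2 members, ZFP783 and ZFP939, are annotated as pseudogenes. The pattern asks for set letters at set spacing, so a box that departs from it is missed. Here and below, members without a KRAB box are those without a match to this pattern, and some of them may hold such a box. Members with the box held a median of 12 C2H2 finger patterns and those without it 8. Chromosome 7 carries 71 members, chromosome 17 has 35, chromosome 13 has 28 and chromosome 8 has 20. In 27 members at least 30% of the transcript's 50-base windows also occur in another gene, so the split of reads between such copies is uncertain. Among the members named here these are ZFP708 (100%), ZFP784 (94.7%), ZFP433, ZFP932, ZFP934 and ZFP808, the last 2 sharing windows with each other.

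The members were weakly expressed, with a median over members of 13.6 CPM and a highest mean of 341 CPM. ZFP706, a small protein with 1 finger pattern, had this highest mean. It was followed by ZFP207 (BuGZ), a protein of the mitotic spindle, with 305 CPM, ZFP281, a regulator of the exit from pluripotency, with 206 CPM, ZFP740 with 159 CPM, ZFP148 (ZBP-89), which binds GC-rich promoters, with 135 CPM, and ZFP638 (NP220), which silences unintegrated retroviral DNA, with 127 CPM. Among these named members alone, the order per kilobase of transcript began with ZFP207 at 195 CPM per kb, ZFP740 at 161, ZFP706 at 77.2 and ZFP281 at 41.7. The summed level of the 273 members was 7622 ± 120 CPM (SD, n = 5) in uninjured CD44low Tregs, above each of the other groups: 6926 ± 452 CPM (SD, n = 6) in injured CD44low, 6414 ± 125 CPM (SD, n = 4) in uninjured CD44high and 6258 ± 247 CPM (SD, n = 4) in injured CD44high Tregs. The 5 uninjured CD44low libraries, at 7462 CPM or more, did not overlap with any other library.

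Spread between libraries of a group set how small a change could be seen. Among the 128 members with a mean of at least 100 counts, the coefficient of variation within groups had a median of 0.180. It was lowest for ZFP143, an activator of housekeeping promoters, at 0.080, and for ZFP148 (0.090), ZFP317 (0.097), ZFP277 (0.098), ZFP706 (0.106) and ZFP422 (0.108). It was highest for ZFP142 (0.344), ZFP950 (0.325), ZFP687 (0.313), ZFP748 (0.296), ZFP831 (0.291) and ZFP719 (0.288). ZFP748 shows how the second number enters this spread: in injured CD44low Tregs it lay at 15.2 to 25.8 CPM in the 3 libraries with the second number and at 33.5 to 43.6 CPM in the other 3.

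ZFP658, a KRAB protein with 21 finger patterns, was highest in CD44low Tregs of uninjured mice. Its 5 libraries there read 22.2, 21.7, 18.6, 16.4 and 19.9 CPM, with a mean of 19.8 ± 2.4 CPM (SD, n = 5). The 6 injured CD44low libraries ran from 4.46 to 8.10 CPM with a median of 6.66. These groups stood far apart, with no uninjured library below 16.4 CPM and no injured one above 8.10.

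In CD44high Tregs the ZFP658 readings were 8.91, 12.5, 9.34 and 5.78 CPM without injury. After injury they were 6.11, 7.73, 4.31 and 7.99 CPM. Every uninjured CD44low library thus lay above every other library. The other 3 groups had medians of 9.13 CPM (uninjured CD44high), 6.92 CPM (injured CD44high) and 6.66 CPM (injured CD44low), and each of them overlapped with the other two, so that no order among them was apparent beyond their spread. The fitted log2 fold change of injured against uninjured mice was -1.63 ± 0.21 (SE) in CD44low and -0.48 ± 0.25 in CD44high Tregs, and that of CD44high against CD44low was -1.12 ± 0.23 in uninjured and 0.03 ± 0.23 in injured mice. The 3 injured CD44low libraries with the second number (5.55 to 8.10 CPM) and the 3 without (4.46 to 6.85 CPM) overlapped, and the fitted change was -1.70 without the former.

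The promoter of ZFP658 is shown with those of the members whose CD44high-CD44low difference was among the largest, ZFP2, ZFP827 and ZFP367. Sequences are from RefSeq on GRCm38 and cover 250 bases before to 50 after the annotated start, 5′ to 3′ on the strand of the gene: chr7:43562120-43562419 (plus strand) for Zfp658, chr11:50916127-50916426 (minus) for Zfp2, chr8:79028187-79028486 (plus) for Zfp827 and chr13:64153150-64153449 (minus), the outer of 2 starts, for Zfp367. Capitals mark matches on either strand to 7 strings searched, which stand for an NRF1 site (TGCGCATGC), an SP or KLF site (GGGCGG), an ETS site (CCGGAAGT), a YY1 site (AAGATGGCG), an E2F site (TTTCCCGC), a CRE (TGACGTCA) and a site of ZFP143 itself (ACTACAATT).
Zfp658: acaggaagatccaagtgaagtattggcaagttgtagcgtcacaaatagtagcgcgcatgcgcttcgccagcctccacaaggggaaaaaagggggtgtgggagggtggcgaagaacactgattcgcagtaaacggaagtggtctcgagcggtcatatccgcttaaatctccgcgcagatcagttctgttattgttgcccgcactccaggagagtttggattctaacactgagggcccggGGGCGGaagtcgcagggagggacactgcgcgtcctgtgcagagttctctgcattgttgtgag
Zfp2: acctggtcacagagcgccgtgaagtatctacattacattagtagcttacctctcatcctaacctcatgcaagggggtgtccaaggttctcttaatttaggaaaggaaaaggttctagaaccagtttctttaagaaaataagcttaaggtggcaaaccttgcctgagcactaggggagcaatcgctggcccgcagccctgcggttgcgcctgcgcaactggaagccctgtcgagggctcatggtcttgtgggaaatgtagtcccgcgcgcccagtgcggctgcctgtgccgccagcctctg
Zfp827: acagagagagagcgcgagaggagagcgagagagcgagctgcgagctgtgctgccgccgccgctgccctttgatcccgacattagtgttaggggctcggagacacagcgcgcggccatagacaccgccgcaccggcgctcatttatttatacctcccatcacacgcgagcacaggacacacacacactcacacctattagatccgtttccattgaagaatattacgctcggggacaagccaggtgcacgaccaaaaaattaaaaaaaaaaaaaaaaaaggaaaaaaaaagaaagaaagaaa
Zfp367: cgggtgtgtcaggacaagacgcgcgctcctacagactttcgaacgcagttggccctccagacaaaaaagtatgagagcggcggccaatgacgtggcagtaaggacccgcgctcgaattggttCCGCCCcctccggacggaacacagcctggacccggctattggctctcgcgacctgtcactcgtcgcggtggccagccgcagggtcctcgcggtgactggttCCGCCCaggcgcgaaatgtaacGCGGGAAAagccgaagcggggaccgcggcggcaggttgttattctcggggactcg
The Zfp658 window holds 1 SP or KLF string close to the start, the Zfp2 and Zfp827 windows hold none of the strings, and the Zfp367 window holds 2 SP or KLF strings and 1 E2F string, none of which overlap. The window of the other Zfp367 start, not printed, holds SP or KLF strings and a CRE but no E2F string.

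Over the family, 231 members had 278 promoters in the RefSeq table. The ETS string was in 11.5% of them against 3.89% of all 32851 promoters, the SP or KLF string in 47.5% against 35.7%, the string of ZFP143 in 2.52% against 0.393%, the NRF1 string in 3.60% against 1.52% and the YY1 string in 3.24% against 1.4%. The CRE was in 3.24% of the members' promoters against 1.79%. The E2F string was in 2.16% against 1.07% and was carried by 6 members. Of these, ZFP367, ZFP414, ZFP688 and ZFP760 rose in CD44high Tregs of uninjured mice (ZFP688 with an adjusted p of 0.0447 that was lost under 12 of 27 alternatives), ZFP644 fell there, and ZFP512 had a log2 fold change of -0.22 that did not pass the test. Of all genes tested, 24.7% were called higher and 21.3% lower there. In injured mice ZFP367 rose (1.12), ZFP512 fell (-0.55, adjusted p = 0.0037 in edgeR), and ZFP414, ZFP688, ZFP760 and ZFP644 did not pass (0.02, 0.09, 0.26 and -0.23). These matches were chosen with the members' changes known and describe letters, not binding. The 32851 promoters belong to 27025 genes and were not limited by counts, whereas members had to reach the minimum mean. The median GC content was 55.2% in members' promoters and 52.7% in all promoters. It was 60% in members without a KRAB box and 53.3% in those with it. Promoters of genes of like level or GC content were not compared, so the higher shares cannot be ascribed to the family.

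CD44high and CD44low Tregs of uninjured mice differed most. In the quasi-likelihood test of edgeR, adjusted after Benjamini and Hochberg over all 11464 genes tested (called at an adjusted p under 0.05), 22 members were higher and 61 lower in CD44high Tregs, 60 of the latter without ZFP658. These are 8.06% and 22.3% of members, beside 24.7% of all genes tested called higher and 21.3% called lower. The share of members called lower thus lay near that of all genes, and the share called higher below it. The median log2 fold change of members was -0.24, that of all genes tested 0.01. In 65 members (64 without ZFP658) the libraries of both groups did not overlap, beside 40.7% of all genes. A change of 2-fold or more was seen in 11 of the higher and 20 of the lower members, beside 1384 and 922 of all 11464 genes tested.

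Members with and without a KRAB box gave different counts in this comparison. Of the 130 without the box, 47 fell and 6 rose in CD44high Tregs (36.2% and 4.62%), with a median log2 fold change of -0.38. Of the 141 with it, 14 fell and 16 rose (9.93% and 11.3%), with a median of -0.12. In injured mice, 34 of 130 without the box fell and 6 rose (26.2% and 4.62%, median -0.28), whereas 8 of 141 with it fell and 7 rose (5.67% and 4.96%, median -0.02), beside 17.2% of all genes called lower and 20.1% called higher. The curves of fold changes show the members without the box displaced to the left of all genes in both CD44 comparisons. Whether the 2 kinds of member differ was not tested, and they were not matched for level. In uninjured mice, 24.6% of members with a mean of 50 counts or more were called lower and 7.54% higher. Among members under 50 counts these shares were 16.2% and 9.46%.

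**Figure D1:**
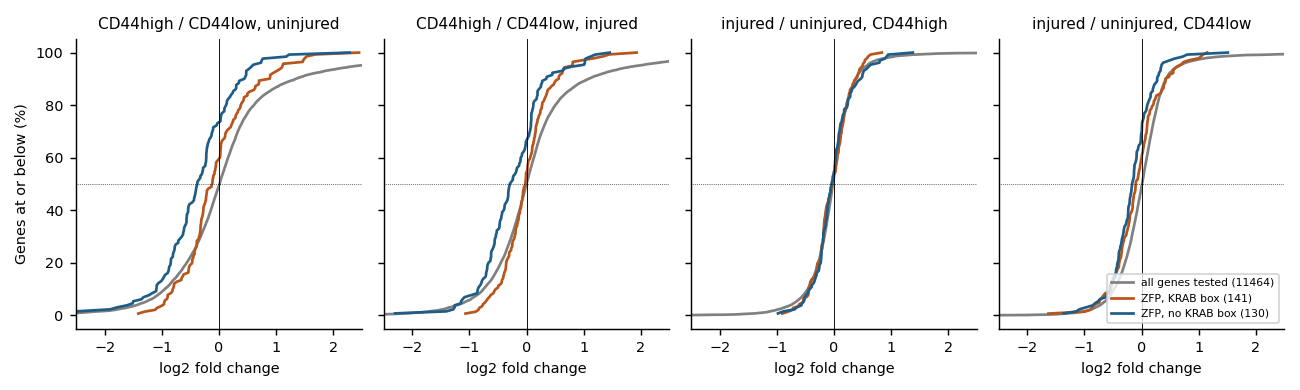
Cumulative distribution of log2 fold changes (x axis) as the percentage of genes at or below each value (y axis), for all 11464 genes tested (grey), 141 members with a KRAB box (orange) and 130 without (blue), in 4 comparisons named above each panel. The curves cross 50% at -0.38 for members without the box and -0.12 for those with it in CD44high against CD44low Tregs of uninjured mice, and the axis is limited to changes between -2.5 and 2.5.

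Among members without a KRAB box, the largest fall in CD44high Tregs was that of ZFP2, a protein with 13 finger patterns. It read 0.18, 0, 0.67 and 0 CPM in the uninjured CD44high libraries and 2.81, 2.52, 3.12, 4.31 and 6.58 CPM in the CD44low ones. The groups did not overlap, and the log2 fold change was -4.16 ± 0.79 (SE, adjusted p = 0.000144), a fitted value that depends on the prior count since several libraries had no read. In injured mice it read 0.53, 1.38, 0.22 and 0 CPM in CD44high libraries and 1.90 to 4.05 CPM (median 2.59) in CD44low libraries, again apart, with a log2 fold change of -2.30 ± 0.64 (adjusted p = 0.00621).

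ZFP827, which brings the NuRD remodelling complex to telomeres, read 2.496, 3.90, 1.17 and 0.61 CPM in uninjured CD44high and 12.4, 10.1, 14.9, 12.8 and 6.75 CPM in CD44low libraries. The log2 fold change was -2.51 ± 0.41 (adjusted p = 2.21e-05), and in injured mice it was -1.26 ± 0.36 (adjusted p = 0.00736), without overlap of groups in either. ZFP281, one of the 6 members of highest level, fell as well. It read 138 to 169 CPM in CD44high and 272 to 329 CPM in CD44low libraries of uninjured mice, with means of 152 ± 13.05 (SD, n = 4) and 296 ± 22.2 CPM (SD, n = 5). The change was -0.96 ± 0.12 (adjusted p = 5.67e-07), and in injured mice -0.70 ± 0.12 (adjusted p = 3.87e-05), where the highest CD44high library lay at 151 CPM and the lowest CD44low library at 189 CPM.

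Of members that bind chromatin complexes, 3 without a KRAB box were picked after their values were seen. ZFP592 and ZFP687 bind ZMYND8 in one complex. ZFP592 was at 62.7 ± 10.9 CPM (SD, n = 4) in CD44high and 147 ± 29.0 CPM (SD, n = 5) in CD44low Tregs without injury, a log2 change of -1.23 ± 0.27 (adjusted p = 0.000639), and fell in injured mice too (-1.15 ± 0.26, adjusted p = 0.00114). ZFP687 fell in uninjured mice (-0.99 ± 0.31, adjusted p = 0.0114) and had a change of -0.58 ± 0.30 in injured mice that did not pass (adjusted p = 0.128). ZFP652, a partner of the corepressor CBFA2T3, read 6.95 to 10.5 CPM in CD44high and 17.7 to 24.1 CPM in CD44low libraries without injury, and 3.85 to 8.30 against 10.98 to 22.1 CPM with it. It fell without overlap in both, by 1.17 (adjusted p = 0.000273) and 1.26 (adjusted p = 0.000148) on the log2 scale.

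Some members have described roles in lymphocytes or in protein synthesis. ZFP608, a repressor of the Rag genes in thymocytes, fell by 1.91 on the log2 scale in uninjured mice (adjusted p = 0.00011) and by 0.84 in injured mice (adjusted p = 0.0414, lost under 12 alternatives, among them without the second-number libraries). ZFP318, which sets the switch from IgM to IgD transcripts in B cells, fell by 1.06 and 0.69 (adjusted p = 0.00261 and 0.0348), and the second call was lost under 5 alternatives (adjusted p up to 0.119), among them without the second-number libraries. ZFP335, needed for the maturation of T cells, fell by 0.57 and 0.67 (adjusted p = 0.0286 and 0.0111), and the first call was lost when CD44high replicate 4 or 5 or CD44low replicate 1 or 4 was left out (adjusted p up to 0.0734). ZFP91, an E3 ubiquitin ligase, read 8.74 to 18.4 and 9.96 to 19.5 CPM in CD44high and CD44low libraries of uninjured mice and did not pass the test in any comparison. ZFP598, the ubiquitin ligase of collided ribosomes, fell in both (-0.81 ± 0.24 and -0.79 ± 0.23, both with adjusted p = 0.00791), and the second call was lost without the 3 libraries with the second number. ZFP622, of the large ribosomal subunit's assembly, stayed between 87.9 and 136 CPM in all libraries and passed no test. ZFP638 fell in uninjured mice (-0.81 ± 0.19, adjusted p = 0.00106) and had a change of -0.08 ± 0.17 in injured mice, and the difference between these changes did not pass the test (adjusted p = 0.232).

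Some members rose in CD44high Tregs. ZFP367, with 2 finger patterns and no KRAB box, read 41.7, 51.9, 46.7 and 38.6 CPM in uninjured CD44high libraries and 2.66, 11.03, 11.2, 9.20 and 11.6 CPM in CD44low libraries. It was 4.88-fold higher (log2 fold change 2.29 ± 0.27, adjusted p = 1.99e-07), and no library of one group reached the other. In injured mice the CD44high libraries read 26.2, 28.7, 24.3 and 31.7 CPM. The CD44low libraries read 8.45 to 16.1 CPM (median 12.998), and the log2 fold change was 1.12 ± 0.25 (adjusted p = 0.000919 in edgeR). Of these CD44low libraries, those with the second number lay at 8.45 to 10.97 CPM. Those without it lay at 15.03 to 16.1 CPM, so the median of ZFP367 falls in a gap between separate sets. In CD44high Tregs its level was lower after injury without overlap of the libraries, but the change of -0.69 ± 0.27 did not pass the test (adjusted p = 0.192), and the difference of the CD44 changes between uninjured and injured mice did not pass either (adjusted p = 0.164). The summed cycling markers, given above, were likewise highest in uninjured and next highest in injured CD44high libraries.

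ZFP934, a KRAB member, read 3.74, 2.88, 3.503 and 5.53 CPM in uninjured CD44high and 0.63, 2.05, 0.28, 0.57 and 0 CPM in CD44low libraries (log2 fold change 2.45 ± 0.59, adjusted p = 0.00153). It also rose in injured mice (1.93 ± 0.51, adjusted p = 0.00461), and it shares 44% of its windows with another gene, so reads of its copies may be counted with it. ZFP41 also rose in both (adjusted p = 0.00413 and 0.000113): CD44high libraries lay between 13.2 and 18.3 CPM without and between 17.9 and 26.2 CPM with injury, and CD44low libraries reached no more than 11.6 and 12.95 CPM. ZFP410, the activator of the Chd4 gene, rose in injured mice (0.45 ± 0.13, adjusted p = 0.00933, lost without the second-number libraries), with 0.19 ± 0.14 in uninjured mice.

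**Figure D2:**
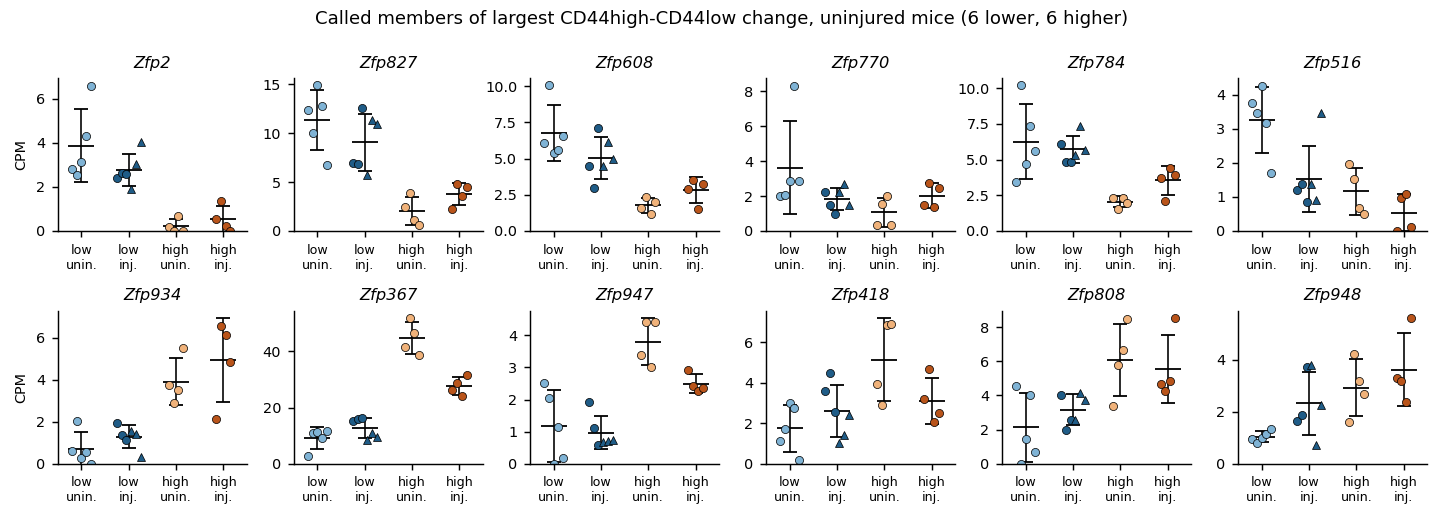
CPM (y axis, from 0) of the 6 members of largest fall (upper panels) and the 6 of largest rise (lower panels), among members called, in CD44high against CD44low Tregs of uninjured mice, by group: CD44low uninjured, CD44low injured, CD44high uninjured and CD44high injured. Each point is 1 library (triangles are the 3 libraries with a second number), the wide bar is the mean and the whiskers are 1 SD. All CD44low libraries of Zfp2 and Zfp827 lie above and all those of Zfp367 below every CD44high library, and Zfp608 separates the groups in uninjured but not in injured mice, while single libraries stand off in Zfp770 and Zfp516. The call in uninjured mice was lost under 14 of 27 alternatives for Zfp516, 5 for Zfp808, 2 for Zfp947 and 1 each for Zfp418 and Zfp770.

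Of the 22 members that rose in CD44high Tregs of uninjured mice, 9 lay in 1 cluster of neighbours. With a gap of at most 500 kb between neighbouring starts, 4 clusters of at least 10 members were found in GENCODE vM21 (GRCm38). In the largest, 20 members on chromosome 17 with starts from 21.01 to 23.56 Mb, 19 with a KRAB box, 9 rose and 1 fell in uninjured mice (median log2 fold change 0.53), and 5 rose in injured mice (median 0.25). The 9 were ZFP160, ZFP54, ZFP53, ZFP52, ZFP948, ZFP760, ZFP995, ZFP947 and ZFP944. In the 18 members on chromosome 13 (67.04 to 67.81 Mb), 1 rose and 2 fell. In the 13 on chromosome 7 (29.77 to 30.16 Mb), 1 rose and 1 fell. In the other 10 on chromosome 17 (32.77 to 33.63 Mb), 2 rose and 1 fell. Of all genes tested, 24.7% were called higher and 21.3% lower in this comparison and 20.1% and 17.2% in injured mice. The clusters were looked for with these changes known, and their differences were not tested.

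ZFP52, of the chromosome 17 cluster, rose in both comparisons. It read 53.1, 37.5, 45.4 and 40.4 CPM in CD44high and 18.3, 17.3, 23.1, 26.6 and 17.2 CPM in CD44low libraries without injury, a log2 change of 1.10 ± 0.17 (adjusted p = 1.72e-05). In injured mice the CD44high libraries read 47.0, 38.5, 51.5 and 52.7 CPM and the CD44low libraries 16.2 to 26.0 CPM (median 19.4), a change of 1.19 ± 0.16 (adjusted p = 3.39e-06). Its neighbour ZFP53 rose less, by 0.43 ± 0.13 and 0.51 ± 0.13 (adjusted p = 0.0101 and 0.00242), and the first call was lost without CD44high replicate 2 (adjusted p = 0.0679). ZFP942, of the same cluster, was the only member called in opposite directions: it was lower in CD44high Tregs of uninjured mice (-0.54 ± 0.21, adjusted p = 0.0363) and higher in those of injured mice (0.56 ± 0.20, adjusted p = 0.026). Both calls were marginal: the first was lost when CD44high replicate 3, 4 or 5 or CD44low replicate 2 or 5 was left out (adjusted p up to 0.104), and the second under 6 alternatives, among them without the second-number libraries (adjusted p up to 0.278, log2 fold change down to 0.32). The difference between both did not pass the test (1.10 ± 0.28, adjusted p = 0.0738).

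**Figure D3:**
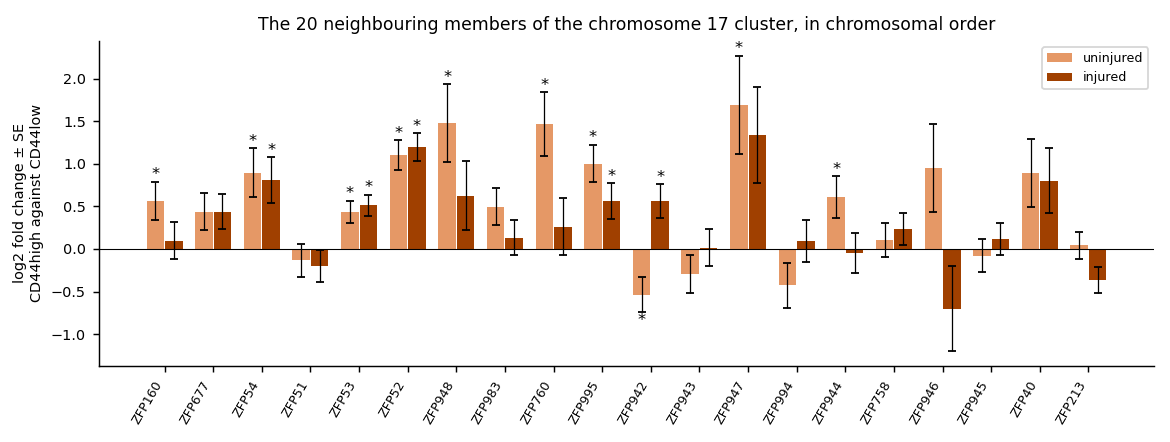
Log2 fold change (y axis) of CD44high against CD44low Tregs for the 20 members of the chromosome 17 cluster in chromosomal order (x axis), in uninjured (light) and injured mice (dark). Bars start at 0, whiskers are 1 SE and asterisks mark an adjusted p under 0.05, which 9 members reached upwards and ZFP942 downwards in uninjured mice.

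In injured mice 13 members were higher and 42 lower in CD44high than in CD44low Tregs (4.76% and 15.4%), beside 20.1% and 17.2% of all genes tested. The median log2 fold change of members was -0.10, that of all genes tested -0.00049. The groups did not overlap in 37 members, beside 24.8% of all genes. A change of 2-fold or more was seen in 6 of the higher and 9 of the lower members, beside 1108 and 558 of all 11464 genes tested. Without the 3 libraries with the second number, the counts were 6 higher and 27 lower, beside 2109 and 1477 of all 11600 genes then tested. Among members called, the largest falls after that of ZFP2 were those of ZFP526 (-1.28), ZFP827, ZFP652, ZFP592 and ZFP628 (-1.15), and the calls of ZFP526 and ZFP628 were lost without those 3 libraries. The largest rises of called members after ZFP934 were those of ZFP296 (1.46 ± 0.48, adjusted p = 0.0187), ZFP52, ZFP367, ZFP41 and ZFP839 (1.01 ± 0.27, adjusted p = 0.00486), and the calls of ZFP296 and ZFP839 were likewise lost.

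The CD44 comparisons in uninjured and injured mice share no library. Of the 22 members higher in uninjured mice 8 were also higher in injured mice (36.4% of the first list and 61.5% of the second), and of the 61 lower 25 were also lower (41.0% and 59.5%). Shared calls were not counted over all genes, so these shares cannot be read as high or low for members. Across the 273 members the log2 fold changes correlated with Pearson's r = 0.707 and Spearman's rho = 0.621, and across all 11464 genes with r = 0.889 and rho = 0.845. Genes are not independent replicates, and members within a cluster of copies share sequence.

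**Figure D4:**
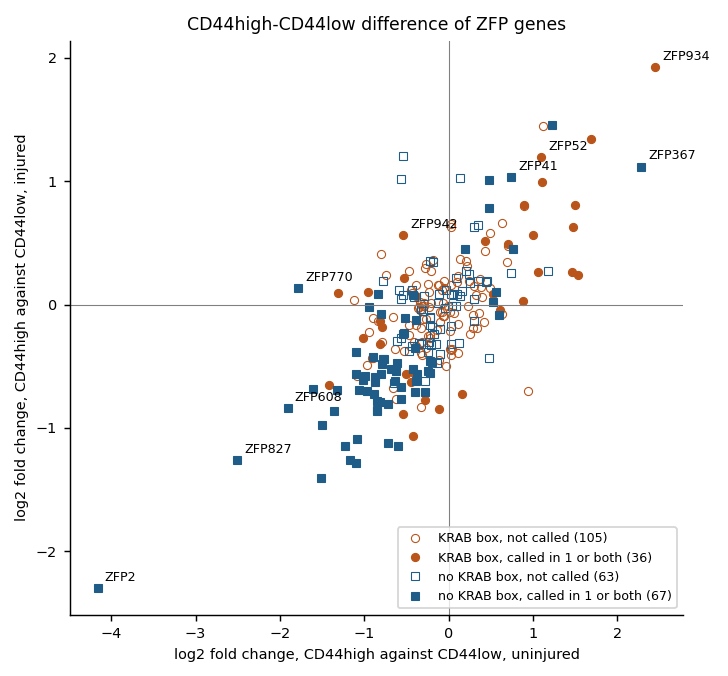
Log2 fold change of CD44high against CD44low Tregs in uninjured (x axis) and injured mice (y axis) for the 271 members with a protein. Orange circles are members with a KRAB box and blue squares those without, filled where the member was called in 1 or both comparisons (36 and 67, not counting ZFP658, which is only described). Most filled squares lie below 0 on both axes, with ZFP2 at -4.16 and -2.30, and ZFP934 lies farthest up at 2.45 and 1.93.

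The corepressor of KRAB proteins was read beside them. Of 25 genes for the TRIM28 complex, its histone and DNA methyltransferases and partner remodellers, 2 were higher and 12 lower in CD44high Tregs of uninjured mice (median log2 fold change -0.25), and 3 were higher and 7 lower in injured mice (median 0.0020). These are 8% and 48% of the list beside 24.7% and 21.3% of all genes in uninjured mice, and 12% and 28% beside 20.1% and 17.2% in injured mice. TRIM28 was at 64.8 ± 6.67 CPM (SD, n = 4) in CD44high and 98.3 ± 7.85 CPM (SD, n = 5) in CD44low Tregs of uninjured mice and fell in both comparisons, by 0.60 (adjusted p = 0.0176) and 0.75 (adjusted p = 0.00391) on the log2 scale. SETDB1 was at 51.5 ± 9.35 against 61.5 ± 2.17 CPM and passed neither test (adjusted p = 0.259 and 0.867). The genes that rose in both were UHRF1, which maintains DNA methylation during replication, at 3.20 and 2.75, and CBX5, a heterochromatin protein, at 1.14 and 0.88. CHD4 fell in both, by 0.78 (adjusted p = 0.00941 and 0.00921).

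Genes of other zinc finger families were counted the same way. Of 35 ZBTB genes, 4 rose and 11 fell in CD44high Tregs of uninjured mice, and of 15 ZSCAN and ZKSCAN genes 5 fell, with median log2 fold changes of -0.17 and -0.31, beside 24.7% of all genes called higher and 21.3% called lower. In injured mice 3 ZBTB genes rose and 7 fell and 2 of the ZSCAN and ZKSCAN genes fell, beside 20.1% and 17.2% of all genes.

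Few members were called for a change with injury. In CD44low Tregs, 4 members were higher and 10 lower in injured mice (1.47% and 3.66%), 9 of the latter without ZFP658, beside 4.24% and 3.36% of all genes tested. The median log2 fold change of members was -0.13 and that of all genes tested 0.01. The fitted change was above 0 in 98 members and below 0 in 175, beside 5833 and 5627 of all 11464 genes tested. Without adjustment, 11 members were higher and 39 lower at p under 0.05 in edgeR (11 and 38 without ZFP658), beside 1661 and 1325 of all genes tested. Whether members as a set differ from all genes was not tested. The groups did not overlap in 7 members (6 without ZFP658), beside 4.68% of all genes. The 10 lower members rose to 20 without the 3 libraries with the second number and to 21 without replicate 5_2 alone, and fell to 5 without uninjured replicate 1 and to 6 without uninjured replicate 2 or 4, without injured replicate 1 or with only the second-number libraries in the injured group. The 4 higher members became 8 without replicate 4_2 or 5_2, 2 without uninjured replicate 1 or injured replicate 2 and 1 without replicate 1_2. Over all genes tested, lower calls went from 385 of 11464 to 890 of 11600 without the second-number libraries and 771 of 11456 without 5_2. They were 175 of 11436 without uninjured replicate 1 and 142 of 11562 with only the second-number libraries. Higher calls went from 486 to 655 of 11461 without 4_2 and 1122 of 11456 without 5_2. They were 335 without uninjured replicate 1, 444 of 11451 without injured replicate 2 and 303 of 11463 without 1_2.

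After ZFP658, the member of largest fall among those called was ZFP146, a protein made of little else than its 10 fingers. It read 18.9, 12.1, 20.3, 19.3 and 17.6 CPM in uninjured and 4.31 to 14.9 CPM (median 6.16) in injured CD44low libraries. A single injured library, replicate 2, reached the range of the uninjured ones, and the log2 fold change was -1.14 ± 0.28 (adjusted p = 0.0155). ZFP942 fell from 18.7 to 34.2 CPM (median 25.2) to 10.5 to 21.0 CPM (median 13.4), with partial overlap (-0.85 ± 0.19, adjusted p = 0.00812). In CD44high Tregs these 2 members changed by -0.22 ± 0.33 and 0.25 ± 0.22 and did not pass.

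ZFP871 and ZFP945, both KRAB members of chromosome 17, fell without overlap of the groups. ZFP871 read 126.8, 111.4, 99.5, 105.9 and 138.1 CPM in uninjured and 37.7 to 92.1 CPM (median 62.9) in injured CD44low libraries (-0.81 ± 0.21, adjusted p = 0.0214), and the call was lost without uninjured replicate 1 and with only the second-number libraries in the injured group (adjusted p up to 0.0875). ZFP945 read 17.8 to 22.4 CPM and 8.18 to 16.002 CPM (-0.74 ± 0.18, adjusted p = 0.0143), and its call was lost with only the second-number libraries (adjusted p = 0.123). In CD44high Tregs the ZFP945 libraries did not overlap either, at 15.8 to 21.8 CPM without and 11.3 to 15.1 CPM with injury, but the change of -0.54 ± 0.20 did not pass (adjusted p = 0.187).

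ZFP445, which with ZFP57 keeps imprinted genes methylated, fell from 58.2 to 74.7 CPM to 27.8 to 61.2 CPM in CD44low Tregs (-0.66 ± 0.20, adjusted p = 0.0472, lost under 17 alternatives). ZFP57 itself had no count. ZFP281 fell by 0.45 (adjusted p = 0.0126), a call lost without uninjured replicate 1 and with only the second-number libraries (adjusted p up to 0.115). ZFP568, which represses a placental Igf2 transcript, had a change of -0.87 ± 0.28 that did not pass (adjusted p = 0.0589), and ZFP809, which silences murine leukaemia virus through its primer binding site, read 11.7 to 22.4 CPM in injured and 12.3 to 21.3 CPM in uninjured CD44low libraries (adjusted p = 0.970).

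The 4 members that rose in CD44low Tregs after injury were ZFP777, ZFP688, ZFP1 and ZFP53, all with a KRAB box, and none of these calls remained with the compared groups alone. ZFP777 read 12.7, 11.3, 26.4, 43.5 and 11.99 CPM in uninjured and 28.4 to 51.9 CPM (median 46.5) in injured libraries, with uninjured replicate 4 inside the injured range (1.04 ± 0.27, adjusted p = 0.0206), and its call was also lost without uninjured replicate 1 and with only the second-number libraries (adjusted p up to 0.123). ZFP688 read 6.25 to 11.5 CPM and 12.1 to 20.4 CPM without overlap (0.71 ± 0.19, adjusted p = 0.0292, lost under 6 alternatives). ZFP1 read 41.1 to 58.1 CPM and 49.99 to 83.3 CPM, and its 3 libraries with the second number (81.2 to 83.3 CPM) lay above the other 3 (49.99 to 73.1 CPM), so that its change (0.55 ± 0.14, adjusted p = 0.0222) did not pass without them. ZFP53 rose by 0.39 ± 0.12 (adjusted p = 0.048, lost under 13 alternatives), with 54.5 to 77.4 CPM in uninjured and 79.5 to 114 CPM in injured libraries.

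**Figure D5:**
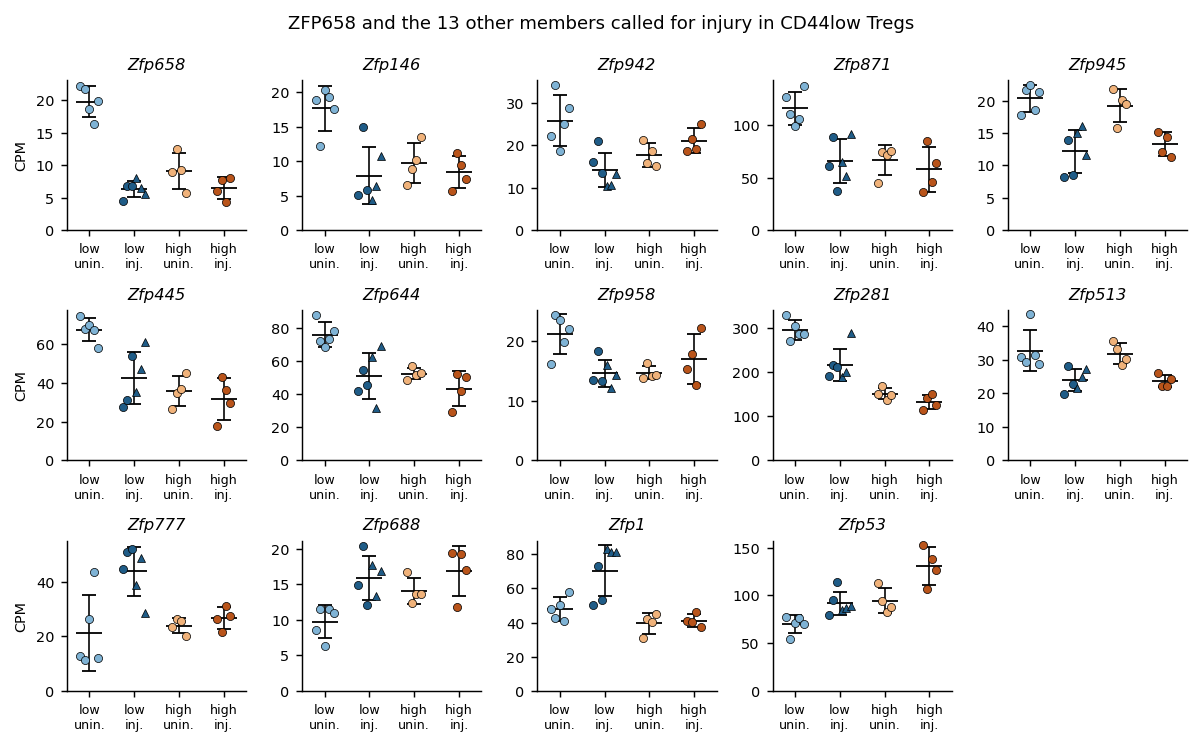
CPM (y axis, from 0) of Zfp658 and of the 13 other members called for injury in CD44low Tregs, by group as labelled under each panel. Each point is 1 library (triangles are the 3 libraries with a second number), the wide bar is the mean and the whiskers are 1 SD. The 5 uninjured CD44low libraries of Zfp658 lie at 16.4 CPM or more and the 6 injured ones at 8.10 CPM or less, and the last 4 panels hold the members that rose.

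In CD44high Tregs, 0 members were higher and 1 lower after injury, beside 1.06% and 1.33% of all genes tested. Without adjustment, 8 members were higher and 11 lower at p under 0.05, beside 781 and 955 of all 11464 genes tested. DESeq2 called 1 member higher, beside 193 of all genes. The lower member was ZFP382, a KRAB protein, which read 15.3, 25.6, 14.3 and 19.5 CPM in uninjured and 12.2, 9.21, 8.62 and 12.8 CPM in injured libraries. These groups did not overlap, but the call was marginal (-0.81 ± 0.21, adjusted p = 0.042) and was lost under 17 alternatives. In CD44low Tregs ZFP382 changed by 0.05 ± 0.19. The groups did not overlap in 8 members, beside 13.3% of all genes, and the median log2 fold change of members was -0.04, that of all genes -0.02.

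No member was called for a difference in the effect of injury between CD44high and CD44low Tregs, beside 0.192% of all genes called higher and 0.454% called lower. Without adjustment 18 members were higher and 8 lower at p under 0.05 (17 and 8 without ZFP658), beside 453 and 794 of all 11464 genes tested. DESeq2 called 2 and 1 members, beside 58 and 159 of all genes. The injury changes in the CD44high and CD44low Tregs share no library. Across members they correlated with r = 0.090 and rho = 0.103, and across all genes tested with r = 0.260 and rho = 0.301. The 5 members whose log2 CPM followed ZFP658 most closely over the 19 libraries were ZFP644 (r = 0.742), a partner of the methyltransferase G9a, ZFP958 (0.713), ZFP871 (0.713), ZFP710 (0.712) and ZFP568 (0.697). The lowest r was that of ZFP688 (-0.736). These r values include the shift between groups for which ZFP658 was chosen, and were not tested. ZFP719, whose start lies 17.4 kb from that of ZFP658, had a change of 0.20 ± 0.24 with injury in CD44low Tregs and did not pass (adjusted p = 0.630).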

How the data were processed

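Bulk RNA-seq of CD44high and CD44low Tregs was read from the table of raw counts per gene that the authors deposited, with replicates kept apart and no normalization. The submitters' processing notes name bcl2fastq 2.18, STAR 2.5 and the builds mm9 and mm10, without a role for each. Names, lengths, proteins and chromosomes are from GENCODE vM21, and promoters from RefSeq, both on GRCm38.

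The members and gene lists were chosen with earlier results of these data known, and the KRAB pattern, promoter strings and clusters were set after values had been seen. Counts were tested with edgeR 4.0.16 in R 4.3.3 (minimum count 10 in its filter, TMM factors, quasi-likelihood test, two-sided, Benjamini-Hochberg over 11464 genes), with 1 mean for each of 4 groups over all 19 libraries and no covariate. The steps were tested on simulated data. CPM values use TMM library sizes, and log2 CPM a prior count of 2. Library totals of 5582234 to 9433610 counts limit the precision of weak members, where 1 CPM is only a few reads. Between libraries of a group, counts differed by more than sampling noise in every pair. Named members are ZFP658, the 6 highest, those around the minimum, up to 6 called in each direction and comparison, the 6 of largest and smallest spread and a list with described roles. Alternatives were RLE factors, no filter, DESeq2 1.42.0, the compared groups alone, a replicate block, libraries left out or summed, other minimum means and a 2-fold threshold. Plots were made in Python 3.11.15 (matplotlib 3.10.9).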

Additional observations from a re-analysis of the deposited data

Results flagged for a closer look

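Among 31 members with values by library, 124 groups were examined for a library that stood off by more than the 95% limit of Dixon's gap test, and 7 did, where chance gives about 1 in 20 groups. ZFP770 read 8.34 CPM in uninjured CD44low replicate 4, with the other 4 libraries at 2.03 to 2.87 CPM, and its fall in CD44high Tregs did not pass without this library (adjusted p = 0.0629 in edgeR). ZFP516 read 3.45 CPM in injured CD44low replicate 5_2, above 0.86 to 1.38 CPM in the others. ZFP608 read 10.1 CPM in uninjured CD44low replicate 2, above 5.39 to 6.58 CPM. ZFP367 read 2.66 CPM in uninjured CD44low replicate 1, below 9.20 to 11.6 CPM. ZFP296 read 7.12 CPM in uninjured CD44high replicate 3, above 2.67 to 3.32 CPM. ZFP871 read 45.5 CPM in uninjured CD44high replicate 2, below 72.2 to 76.1 CPM. ZFP808 read 8.51 CPM in injured CD44high replicate 5, above 4.24 to 4.85 CPM.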

How the results depend on the processing

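The 273 members and the named ones were recounted under each alternative. Of 2051 values for calls of named members 1872 kept direction and side of the threshold, 179 lost the call and 0 changed sign. Of 134 values of ZFP658, which is described without a test, 6 changed sign, all in CD44high against CD44low Tregs of injured mice, where the log2 fold change of 0.03 ran from -0.073 to 0.19. Members higher and lower in CD44high Tregs of uninjured mice (22 and 61) became 11 and 20 at 2-fold, with 16 to 24 and 51 to 67 when 1 library was left out. In injured mice (13 and 42) they became 6 and 9 at 2-fold and 6 and 27 without the second-number libraries, with 10 to 16 and 29 to 48 over single libraries left out. For injury in CD44high Tregs, the 0 higher members became 1 with DESeq2, with the compared groups alone and with replicates 1 and 1_2, and 5 and 5_2, summed, and the 1 lower became 0 without a filter, without a minimum and filter, under the replicate block, with the second-number libraries alone and at 2-fold, with 0 to 1 for both over single libraries left out. For injury in CD44low Tregs, the 4 higher became 7 with DESeq2, 0 with the compared groups alone, 2 under the replicate block, 7 without and 2 with only the second-number libraries and 1 at 2-fold (1 to 8 over single libraries left out), and the 10 lower became 20, 6 and 2 under the last 3 (5 to 21). For the difference in the effect of injury, 0 higher became 2 with DESeq2 and 1 with the second-number libraries alone (0 to 1 over single libraries), and 0 lower became 1 with DESeq2 and 1 without the second-number libraries. Counts over all genes tested moved as well: lower calls for injury in CD44low Tregs were 890 of 11600 without and 142 of 11562 with only the second-number libraries. With 1 and 1_2, and 5 and 5_2, summed, 411 genes were higher and 345 lower of 11473 in that comparison. Between CD44high and CD44low Tregs of injured mice they were then 2291 and 1940. The cause of these moves was not tested. The labels do not say whether libraries of the same number come from the same mice, and the main test used no pairing. Correlations between deviations of same-numbered libraries from their group means could not settle this. Between CD44high and CD44low libraries they were 0.062, 0.0010, 0.12 and -0.0068 in uninjured mice and 0.17, 0.10, 0.12 and -0.054 in injured mice. Under the replicate block the CD44 counts were 24 and 60 in uninjured and 10 and 41 in injured mice, and 9 members were lower after injury in CD44low Tregs. Members with a mean under 50 counts, 74 of 273, had few reads in a library, so small changes in them could not be seen, and copies that share sequence cannot be separated.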
